A study of Rattus norvegicus with 30 samples.

Results

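A low dose of beta-naphthoflavone (BNF), 1 µM, was compared with its vehicle after 24 h in primary rat hepatocytes, across all genes on an expression array. The comparison used the 5 arrays titled 24hr 1uM and the 5 titled 24hr 1% DMSO, 10 of the 30 arrays of the series. Hepatocytes of male Sprague Dawley rats had been bought frozen, thawed, plated on collagen and covered with Matrigel, and received BNF or vehicle on day 3 of culture. The vehicle was 1% DMSO, and the labels say that the BNF dosing solutions were made in 1% DMSO as well, so both groups were exposed to the solvent. Each array held RNA from 1 well of a 6-well plate, described as an independent culture. The labels name neither the animals nor the age of the rats and do not tie a well to an animal, which means that the tests weigh differences against well-to-well spread. The remaining 20 arrays held 100 µM BNF at 24 h and vehicle, 1 µM and 100 µM BNF at 48 h, again with 5 arrays per group, and they are used here where a dose or a time is compared.

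BNF is a synthetic flavone that binds the aryl hydrocarbon receptor (AhR). The bound receptor leaves its chaperone complex in the cytosol, pairs with ARNT in the nucleus and binds DNA at a short core sequence, which turns on a battery of genes led by the cytochrome P450 Cyp1a1. In liver this response is known for oxidising and clearing planar aromatic compounds, and genes that end the signal, such as Tiparp and Ahrr, belong to it.

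The core of the AhR binding site was looked for in the promoters of the battery, because these are the genes the results below turn on. RefSeq promoter sequences, 250 bases before to 50 bases after the gene start on GRCr8, were searched for GCGTG on either strand (CACGC is the same core read from the other strand). Of the 10 genes in the battery list, 8 were measured on the arrays, and 6 of these 8 matched a RefSeq promoter sequence. Cyp1a1 and Aldh3a1 matched none, so their promoters were not searched. The core was present in Nqo1 (1 match), Tiparp (1), Cyp1b1 (2) and Ahrr (3), and it was not among the letters of this window in Cyp1a2 or Cyp2s1. The sequences below are those of 3 genes with a match and of Cyp1a2 without one, with the core in capitals. Nqo1 lies at chr19:52220218-52220517 (minus strand), Tiparp at chr2:152063519-152063818 (plus strand), Ahrr at chr1:30821969-30822268 (plus strand) and Cyp1a2 at chr8:66978100-66978399 (minus strand).
Nqo1: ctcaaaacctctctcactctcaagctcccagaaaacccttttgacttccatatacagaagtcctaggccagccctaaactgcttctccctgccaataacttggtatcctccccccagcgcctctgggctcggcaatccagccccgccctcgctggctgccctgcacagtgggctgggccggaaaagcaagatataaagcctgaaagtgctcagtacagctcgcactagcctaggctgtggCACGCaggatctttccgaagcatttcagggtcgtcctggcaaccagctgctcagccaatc
Tiparp: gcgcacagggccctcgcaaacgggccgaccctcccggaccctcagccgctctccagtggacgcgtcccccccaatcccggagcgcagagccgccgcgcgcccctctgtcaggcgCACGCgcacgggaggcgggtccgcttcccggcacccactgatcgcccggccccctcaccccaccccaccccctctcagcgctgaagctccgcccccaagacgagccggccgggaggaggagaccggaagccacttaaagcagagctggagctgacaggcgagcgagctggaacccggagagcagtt
Ahrr: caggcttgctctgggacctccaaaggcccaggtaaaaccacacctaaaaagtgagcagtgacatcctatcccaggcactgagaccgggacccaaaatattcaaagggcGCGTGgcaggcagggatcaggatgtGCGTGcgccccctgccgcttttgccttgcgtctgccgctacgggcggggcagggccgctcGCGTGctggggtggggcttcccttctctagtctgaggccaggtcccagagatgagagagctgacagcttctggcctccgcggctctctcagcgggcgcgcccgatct
Cyp1a2: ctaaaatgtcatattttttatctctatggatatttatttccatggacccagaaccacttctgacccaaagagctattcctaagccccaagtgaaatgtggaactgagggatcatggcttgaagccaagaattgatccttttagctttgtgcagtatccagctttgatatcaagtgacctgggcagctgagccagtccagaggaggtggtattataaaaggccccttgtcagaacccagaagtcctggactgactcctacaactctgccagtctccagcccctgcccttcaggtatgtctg
The core is common: 31.1% of all 27457 RefSeq promoters of this length held it, and 45.8% of the 11700 promoters of tested genes did. Among genes that were higher with 1 µM BNF the share was 52.2% (120 of 230), and among genes that were lower it was 51.2% (144 of 281). A match in a window is a description of its letters and says nothing of binding.

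The arrays measured hepatocyte RNA. All 13 measured hepatocyte markers, among them Alb and Ttr, had a mean signal above that of the median gene, while 11 of 60 markers of Kupffer, stellate, endothelial, cholangiocyte and lymphocyte types did. Signals are the deposited linear intensities, scaled so that each array had the same trimmed mean, and the median gene had an SD of 0.21 log2 units within the vehicle group and 0.19 within the BNF group. In 12 measures of the arrays, including how far 3' and 5' control probe sets for Gapdh and beta-actin differed, no exact permutation p was under 0.05 after adjustment. With 5 arrays against 5, a single measure that separated the groups fully would reach an adjusted p of 0.0952 on its own, so this test could not have called 1 measure alone. The lowest values were those of the summed Kupffer and stellate marker signals (both exact permutation p = 0.0159, adjusted p = 0.0952), and each of these sums was moved mostly by 1 bright gene, Cd14 and Lox, as given below. The median signal of all probe sets was 375 ± 14.6 (SD, n = 5) in vehicle and 397 ± 17.7 with BNF (exact permutation p = 0.0556, adjusted p = 0.222). In RNA of a whole well, fewer cells of a type and less RNA per cell cannot be told apart.

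At 1 µM for 24 h, BNF changed 612 of 14217 genes, 4.30% of those tested (limma, Benjamini-Hochberg adjusted p under 0.05). Of these, 271 were higher (1.91% of all genes) and 341 lower (2.40%). The changes were small: the median absolute log2 difference of the called genes was 0.326, and 29 reached 2-fold, 19 of them higher and 10 lower. Most called genes, 548 of 612, had a signal above that of the median gene. The share called was therefore higher among brighter genes, while the all-gene shares set beside the lists below count bright and dim genes alike. The 5 BNF arrays lay wholly above the 5 vehicle arrays in 334 genes and wholly below in 405, together 5.20% of the genes. The balance of higher and lower calls depended on how arrays were centred. Of the called genes, 44.3% were higher as deposited, 32.6% (151 higher, 312 lower) with each array centred on the median of its genes, 12.9% (51 higher, 344 lower) with each array centred on the median of all its probe sets, and 49.0% (330 and 344) after quantile normalization. Without BNF array 3 there were 406 calls in place of 612, with 167 higher, and without BNF array 4 there were 174 higher. With the 2 groups fitted alone 137 were higher. The 29 genes past 2-fold became 19 without BNF array 3 and 17 without BNF array 4.

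**Figure D1:**
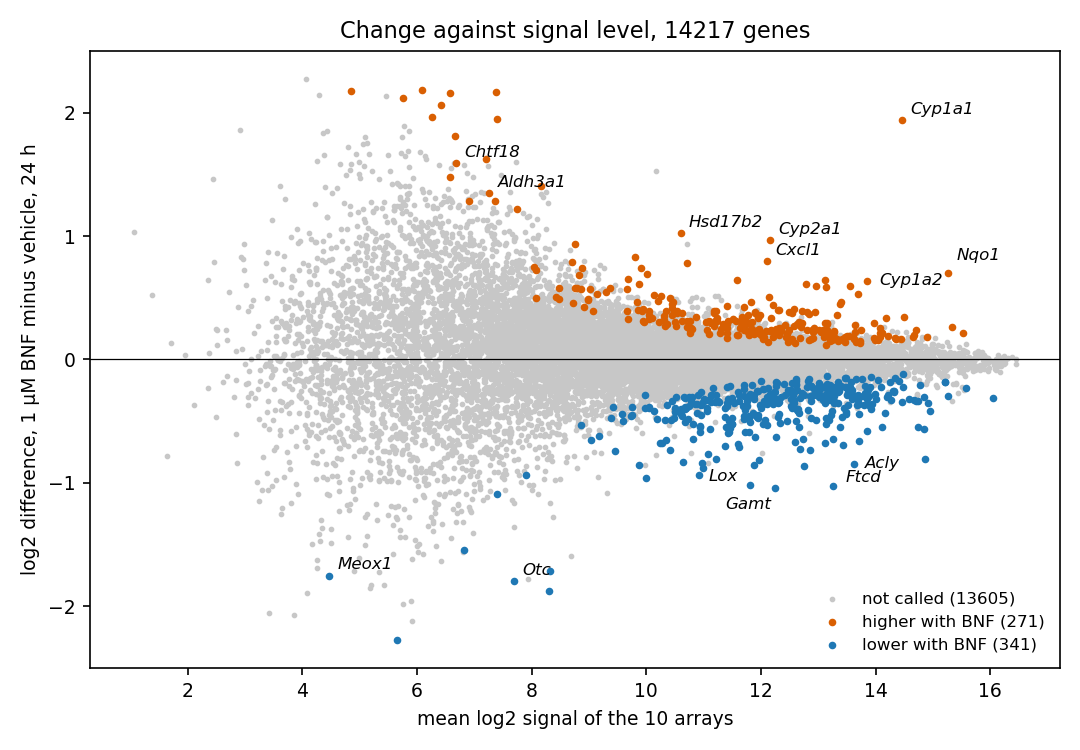
Log2 difference between 1 µM BNF and vehicle at 24 h (y axis) against the mean log2 signal of the 10 arrays (x axis) for each of 14217 genes, with 271 genes called higher in orange and 341 called lower in blue. Most called genes lie in the brighter part of the range and within 1 log2 unit of no change, while Cyp1a1, at a difference of 1.94, stands apart among the bright genes.

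The AhR battery rose in part. Of its 8 measured members, 4 were called higher (50.0%, against 1.91% of all genes) and none lower, with a median log2 difference of 0.67 against 0.0282 over all genes. The count was 3 to 5 when 1 array was left out and 3 with the 2 groups fitted alone. Cyp1a1, the oxidising enzyme that is the classical readout of the receptor, had signals of 11751, 15657, 7573, 13897 and 10283 on the vehicle arrays and 39415, 42694, 46765, 47545 and 44084 on the BNF arrays. Every BNF array was above every vehicle array, and the spread between wells was wider in vehicle on the log scale. The means were 11832 ± 3140 and 44100 ± 3275 (SD, n = 5), a log2 difference of 1.94 ± 0.20 (SE) or 3.83-fold (limma, adjusted p = 2.49e-07). Cyp1a2, the related P450 that metabolises caffeine and aromatic amines, had vehicle signals of 12700, 12748, 9837, 11301 and 13066 and BNF signals of 19703, 20016, 18068, 17823 and 16782. Its groups did not overlap, and it rose 1.55-fold (log2 difference 0.64 ± 0.11 SE, adjusted p = 8.49e-04). Nqo1, a quinone reductase that both AhR and NRF2 control, read 29389, 31136, 33163, 31895 and 28814 in vehicle and 49238, 48013, 52172, 50865 and 51072 with BNF. These groups were tight and far apart, and Nqo1 rose 1.63-fold (0.70 ± 0.07 SE, adjusted p = 4.39e-08).

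The other battery members were dim or changed little. Aldh3a1, an aldehyde dehydrogenase, read 90.3, 94.1, 32.9, 133 and 218 in vehicle and 292, 295, 224, 264 and 170 with BNF. Vehicle array 5 overlapped the BNF range. Aldh3a1 was called 2.54-fold higher (1.35 ± 0.37 SE, adjusted p = 0.0323), but the call was lost in 7 of 10 fits that each left out 1 array (adjusted p up to 0.0978), those without any of vehicle arrays 1 to 3 and BNF arrays 1 to 4. It was also lost with the 2 groups fitted alone (adjusted p = 0.120) and with the 3 groups of 24 h fitted alone (0.0682). Tiparp, an ADP-ribosyltransferase that ends AhR signalling, read 3999, 3877, 3317, 3941 and 4338 in vehicle and 4928, 4701, 4663, 4591 and 4265 with BNF. Only BNF array 5 fell within the vehicle range. Its log2 difference was 0.25 with an adjusted p of 0.0581, and a dimmer probe set of the same gene gave 0.64 ± 0.15 (SE, adjusted p = 0.0122). Tiparp was called after quantile normalization (adjusted p = 0.0432), without the dimmer genes (0.0324) and with the 3 groups of 24 h fitted alone (0.0267). With the mean over its probe sets the log2 difference was 0.45 (7.19e-04). Of the 10 fits that left out 1 array, 9 did not call it, and the fit without vehicle array 5 did (0.0378). For Ahrr, the repressor of the receptor, the probe set was dim, with 12.3, 304, 29.5, 64.0 and 26.1 in vehicle against 113, 182, 113, 80.0 and 89.0 with BNF. Vehicle array 2 was above all BNF arrays, and the difference of 1.30 ± 0.74 (SE) did not pass the test (adjusted p = 0.385). Cyp1b1, a P450 of extrahepatic tissues, differed by 0.31 (adjusted p = 0.341) and Cyp2s1 by 0.32 (adjusted p = 0.344), and both groups overlapped. Of the 17 measured genes for the receptor, its partners and cofactors, none was called in limma, and 2 had an unadjusted p under 0.05. Ahr itself read 396 ± 82.2 in vehicle and 373 ± 120 with BNF (SD, n = 5, adjusted p = 0.823), and the chaperone Hsp90ab1 29049 ± 1777 and 29620 ± 1091 (adjusted p = 0.887). The other probe set of Hsp90ab1 gave a log2 difference of 0.24 (limma adjusted p = 0.0525).

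**Figure D2:**
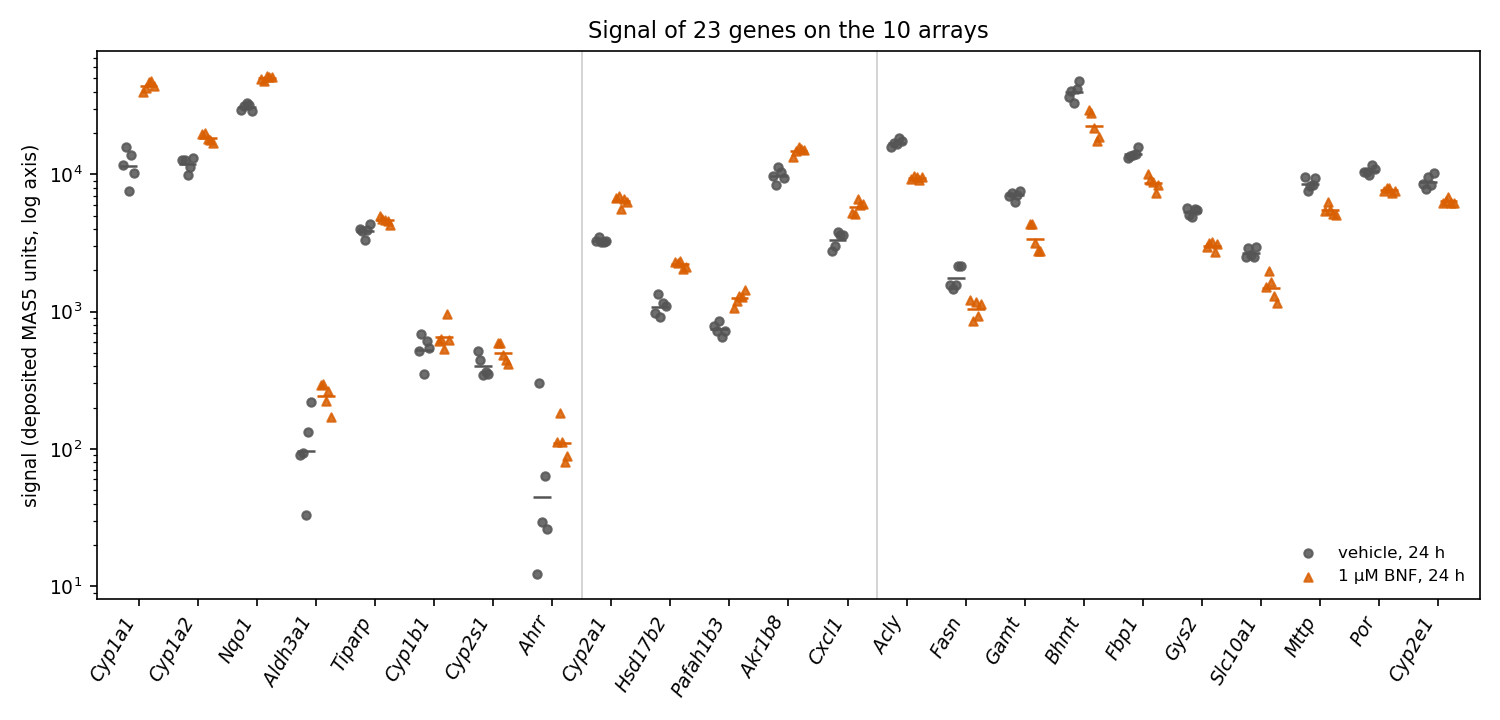
Signal of 23 genes on each of the 5 vehicle arrays (grey circles) and 5 arrays of 1 µM BNF (orange triangles) at 24 h, on a log axis in deposited units, with a line at each group's mean of log2 signal. The AhR battery is on the left, other genes that rose in the middle and genes that fell on the right. Cyp1a1, Cyp1a2 and Nqo1 separate fully, whereas Aldh3a1, Tiparp, Cyp1b1, Cyp2s1 and Ahrr overlap.

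Beyond the battery, the genes described next were the highest among called genes with groups apart and a signal above the median gene. Of the 19 genes called at least 2-fold higher, 2 met those conditions, Cyp1a1 and Hsd17b2, and the others had a signal below that of the median gene. Cyp2a1, a rat P450 that hydroxylates testosterone, read 3273, 3466, 3190, 3227 and 3281 in vehicle and 6673, 6984, 5624, 6622 and 6310 with BNF. It rose 1.96-fold with no overlap (0.97 ± 0.06 SE, adjusted p = 1.33e-11), the smallest p of any named gene. Hsd17b2, which oxidises estradiol and testosterone to less active ketones, read 978, 1335, 912, 1161 and 1105 in vehicle and 2314, 2252, 2345, 2048 and 2104 with BNF. Its groups did not overlap either, and it rose 2.03-fold (1.02 ± 0.14 SE, adjusted p = 1.66e-05). Pafah1b3, a catalytic subunit of a platelet-activating factor acetylhydrolase, went from 787, 719, 855, 656 and 726 to 1056, 1199, 1291, 1281 and 1437. That was a 1.67-fold rise (adjusted p = 2.92e-07). Akr1b8, an aldo-keto reductase, rose 1.51-fold (adjusted p = 5.50e-06), Sfn, which encodes 14-3-3 sigma, 1.57-fold (1.08e-04), and Gnpda2, a glucosamine-6-phosphate deaminase, 1.57-fold (0.0101). Anxa5, which binds phosphatidylserine, rose by 0.59 in log2 units (3.09e-04), Sdcbp2, syntenin-2, 1.45-fold (2.84e-05), and Ubd, a ubiquitin-like protein, 1.51-fold (5.78e-04). All of these kept their calls in each of the 10 fits that left out 1 array and in the fits with other centring. The urea transporter gene Slc14a1 was 1.78-fold higher (adjusted p = 0.0218), a call lost without vehicle array 4 (adjusted p = 0.0503). The call was also lost with the 2 groups fitted alone (0.152), with the 3 groups of 24 h fitted alone (0.0857) and with the mean over its probe sets (0.0820). Slc6a8, the creatine transporter, was 1.53-fold higher (adjusted p = 0.00830), and its other probe set gave a log2 difference of 0.26 (adjusted p = 0.361).

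The lowest genes were taken under the same conditions. Of the 10 genes called at least 2-fold lower, 3 met them, Gamt, Ftcd and Lox, while larger called differences, such as -2.27 for Smim1 and -1.80 for Otc, came from dimmer probe sets with overlapping groups. Gamt, which makes creatine from guanidinoacetate, read 6887, 7327, 6328, 7059 and 7507 in vehicle and 4319, 4350, 3164, 2765 and 2741 with BNF. No BNF array reached the vehicle range, and Gamt fell 2.07-fold (-1.05 ± 0.12 SE, adjusted p = 2.43e-06). Acly, which supplies cytosolic acetyl-CoA for lipid synthesis, read 15747, 16877, 16642, 18454 and 17321 in vehicle and 9168, 9739, 9569, 9154 and 9550 with BNF. The BNF arrays lay within a narrow band, and Acly fell 1.80-fold (-0.85 ± 0.06 SE, adjusted p = 4.28e-11). Gucy2c, guanylate cyclase C, fell 1.81-fold (adjusted p = 1.02e-08), Pcsk6, a proprotein convertase, 1.82-fold (7.73e-05), and Car5a, the mitochondrial carbonic anhydrase, 1.84-fold (0.00305). Acsm3, a medium-chain acyl-CoA synthetase, fell 1.81-fold (0.00263), and Poteml2 fell 1.77-fold (4.05e-05). Adss1, an enzyme of AMP synthesis, fell 1.94-fold (2.51e-05) on its brighter probe set, while the other gave a log2 difference of -0.11 (adjusted p = 0.778). Ftcd, a folate and histidine enzyme, fell 2.04-fold (0.0143), a call lost without BNF array 4 (0.0508). LOC100912629 was 1.92-fold lower (0.0442) and lost its call in all 10 fits that left out 1 array.

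Lox, which crosslinks collagen and was listed as a stellate cell marker, read 5939, 5825, 3203, 6150 and 5049 in vehicle and 3022, 2404, 2852, 1965 and 2461 with BNF. It fell 2.03-fold with no overlap (adjusted p = 0.00734), while a dimmer probe set gave -0.42 (adjusted p = 0.490). Ccn2, a matrix protein that TGF-beta and YAP induce, fell 1.66-fold (adjusted p = 2.87e-05). Lox was the only one of 60 markers of other cell types that was called. The summed signal of the 17 stellate markers ranged from 8513 to 11998 in vehicle and from 7758 to 9373 with BNF, and Lox carried this fall: the other 16 summed to 5576 ± 312 in vehicle and 5769 ± 427 with BNF (SD, n = 5). The other stellate markers included Col1a1 at 336 ± 41.6 and 377 ± 106 and Des at 672 ± 130 and 705 ± 170 (SD, n = 5). The part of stellate cells in the fall of Lox and Ccn2 was not tested.

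Some genes of drug metabolism outside the AhR battery were called, more of them lower than higher, while Cyp2a1 rose 1.96-fold as given above. Of 13 genes known as CAR or PXR targets, none was higher and 2 were lower (15.4%, against 2.40% of all genes), Por and Alas1. Por, the reductase that passes electrons to all microsomal P450s, read 10362, 10419, 9794, 11652 and 10828 in vehicle and 7498, 7891, 7888, 7273 and 7543 with BNF. It fell 1.39-fold without overlap (-0.48 ± 0.08 SE, adjusted p = 5.78e-04), and its other probe set fell too (-0.44, adjusted p = 0.0122). Alas1, the first step of heme synthesis, was 1.16-fold lower (adjusted p = 0.0420), a call lost in 8 of 10 fits that left out 1 array, which leaves Por alone. Among 30 other P450s, 2 were higher (6.67%, against 1.91% of all genes), Cyp2a1 and Cyp20a1, and 4 were lower (13.3%, against 2.40%). Those lower were Cyp2e1, which oxidises ethanol and paracetamol (1.39-fold, adjusted p = 1.96e-04), the fatty acid hydroxylases Cyp4f4 (1.75-fold, 0.00243) and Cyp4f1 (1.29-fold, 0.00977), and Cyp2d2 (1.34-fold, 0.00444). Cyp20a1 lost its call with arrays centred on all probe sets (adjusted p = 0.329). P450, Ugt2b and sulfotransferase families hold close paralogs, so probe sets of these genes may pick up RNA of relatives.

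Of 22 NRF2 targets, 3 were higher (13.6%, against 1.91% of all genes) and none lower, with a median log2 difference of 0.06. They were Nqo1, Akr1b8 and Gpx2, a glutathione peroxidase that rose 1.31-fold (adjusted p = 0.00123) and lost its call with arrays centred on all probe sets (0.0609). None of 19 glutathione transferases was higher and 2 were lower (10.5%, against 2.40% of all genes), Gstz1 and Mgst3. Both lost their calls without BNF array 4 (adjusted p = 0.0619 and 0.0679). Of 8 glucuronidation genes 2 were lower, Ugt2b at 1.35-fold (adjusted p = 6.86e-04) and Ugt2b10 (0.0488), the latter not called in 9 of 10 fits that left out 1 array. In 22 genes of sulfation and other conjugation, 4 were lower (18.2%), led by Sult1b1 at 1.34-fold (adjusted p = 6.44e-04) and the epoxide hydrolase Ephx2 at 1.22-fold (0.00537). Without BNF array 3, 4 or 5 or vehicle array 4 or 5, 2 of these 4 were called. Steroid metabolism split, with 2 of 17 genes higher (Hsd17b2 and Hsd17b8, 1.32-fold, adjusted p = 5.77e-04) and 2 lower (Hsd17b4, a peroxisomal enzyme, 1.25-fold, 3.92e-04, and Hsd11b1, 0.0462). Hsd11b1, which regenerates active glucocorticoid, lost its call in 9 of 10 fits that left out 1 array.

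**Figure D3:**
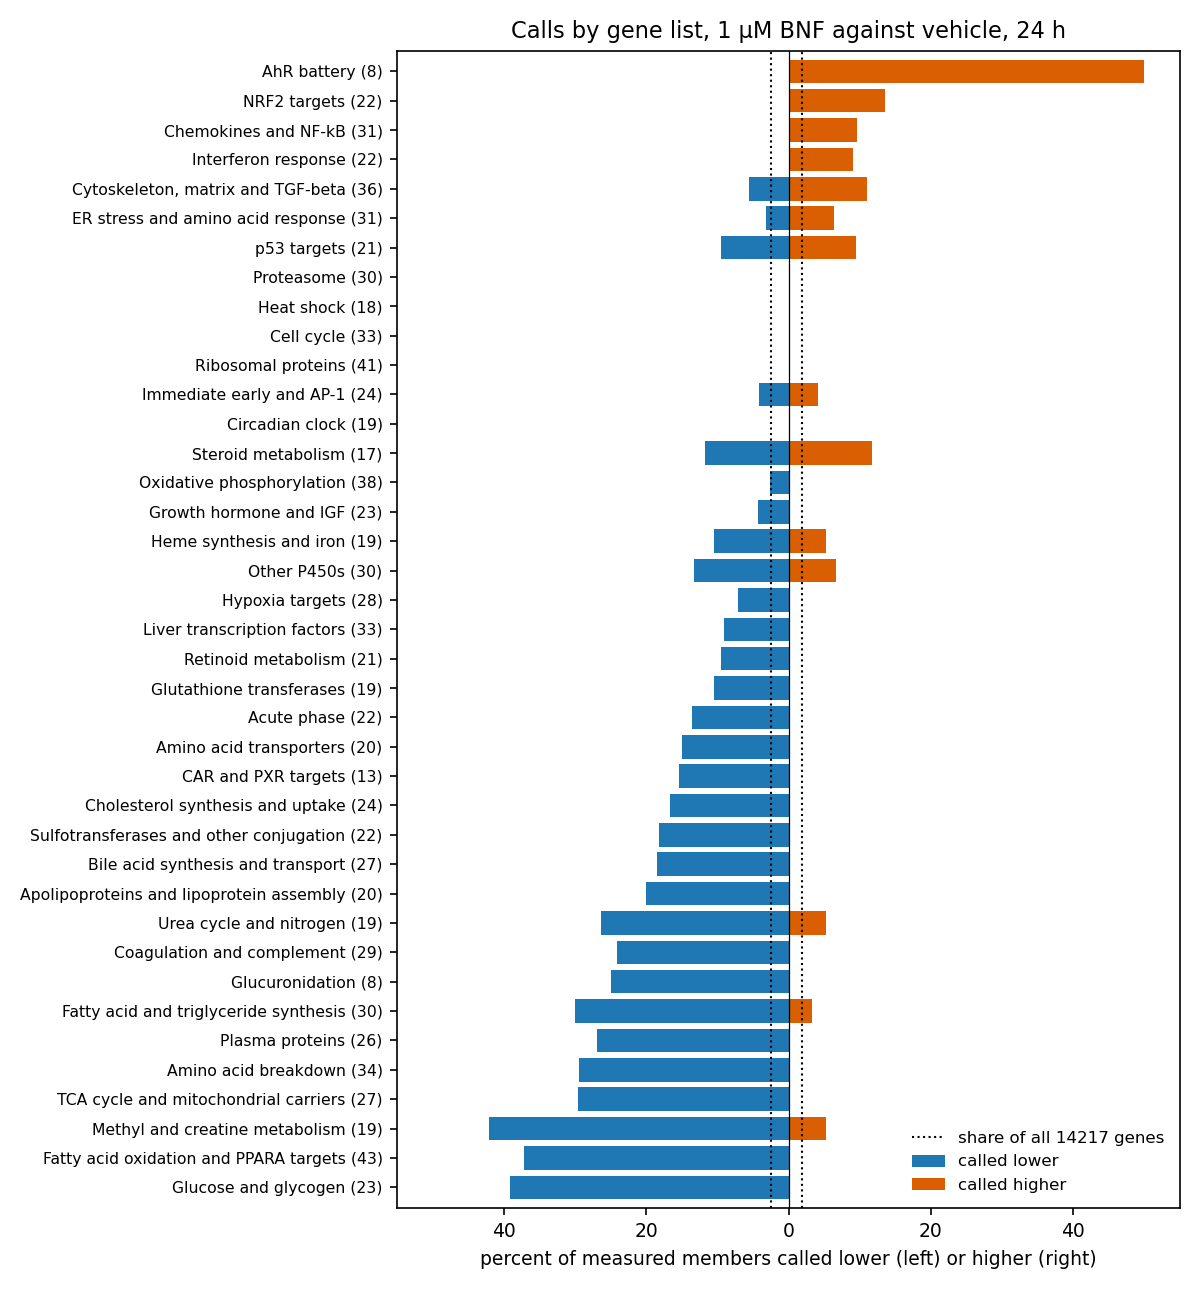
Percent of the measured members of each gene list that were called higher (orange, right) or lower (blue, left) with 1 µM BNF at 24 h, with the number measured in parentheses and dotted lines at the shares over all 14217 genes (1.91% higher, 2.40% lower). The AhR battery has the longest bar to the right, and the longest bars to the left belong to metabolic lists such as glucose and glycogen (39.1%) and methyl and creatine metabolism (42.1%). The lists were chosen with earlier results of these data known.

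Part of the lipid synthesis genes were lower. Of 30 genes of fatty acid and triglyceride synthesis, 9 were lower (30.0%, against 2.40% of all genes) and 1 was higher, and 23 had a negative difference. While 20 genes of the list were not called, the lower ones included enzymes that carry acetyl units into fatty acids. These enzymes were Acly, Acss2, which activates acetate (1.45-fold, adjusted p = 3.12e-07), Acaca, which makes malonyl-CoA (1.41-fold, 2.23e-05), and Fasn, the synthase (1.66-fold, 4.15e-04). Fasn read 1573, 1460, 1554, 2134 and 2147 in vehicle and 1207, 851, 1184, 936 and 1138 with BNF, so that each BNF array was below each vehicle array. Scd, which desaturates the products, fell 1.46-fold (adjusted p = 5.38e-04), and Srebf1, the transcription factor known for driving this pathway, 1.37-fold (0.00348). Other probe sets of Acaca (-0.12, adjusted p = 0.797), Fasn (-0.43, 0.281) and Srebf1 (-0.30, 0.143) did not pass the test. Leaving out any 1 array left 7 to 9 genes of this list lower. Of 24 genes of cholesterol synthesis and uptake, 4 were lower (16.7%), Ebp, Lss, Dhcr7 and Insig1. Ebp, a sterol isomerase, kept its call in all fits run (1.23-fold, adjusted p = 0.00922). The list's count was 1 without BNF array 4 and 2 without BNF array 2, 3 or 5 or vehicle array 1, 3 or 4.

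Part of the fatty acid oxidation genes were lower as well. Of 43 measured genes of oxidation and PPARA targets, 16 were lower (37.2%, against 2.40% of all genes) and none was higher. A negative difference was seen in 39 (median log2 difference -0.24). Acaa2, the last enzyme of mitochondrial beta-oxidation, read 26631, 29460, 31746, 30911 and 32307 in vehicle and 25335, 22515, 24634, 22748 and 24261 with BNF. Its groups did not overlap, and it fell 1.26-fold (adjusted p = 7.33e-04). Fgf21, a hormone that liver secretes in fasting, fell 1.32-fold (adjusted p = 0.00265), Eci2, an enoyl-CoA isomerase, 1.22-fold (0.00313), and Acad11, an acyl-CoA dehydrogenase, 1.30-fold (0.00408). Fabp1, the liver fatty acid carrier, fell 1.47-fold (adjusted p = 0.00761), and Creb3l3, a fasting-induced transcription factor, 1.18-fold (0.00444). These 6 held in every fit that left out 1 array, but the list's count was 9 without BNF array 4 and 10 without BNF array 2 or without vehicle array 5.

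Some bile acid and lipoprotein genes were lower too. In the list of bile acid synthesis and transport, 5 of 27 genes were lower (18.5%, against 2.40% of all genes) and none higher. The 5 were called whichever array was left out. Slc10a1, the uptake transporter NTCP, read 2479, 2915, 2576, 2486 and 2958 in vehicle and 1511, 1990, 1653, 1292 and 1160 with BNF. It fell 1.79-fold with no overlap (-0.84 ± 0.16 SE, adjusted p = 0.00198). On the other side of the cell, the canalicular pump Abcb11 fell 1.32-fold (adjusted p = 0.00123) and the phospholipid floppase Abcb4 1.27-fold (0.00102). The side chain oxidation enzymes Cyp27a1 (1.27-fold, adjusted p = 0.00247) and Acox2 (1.71-fold, 0.00734) made up the rest. Of 20 genes of apolipoproteins and lipoprotein assembly, 4 were lower. Mttp, which loads lipid onto apolipoprotein B, read 9515, 7593, 8156, 8329 and 9346 in vehicle and 5405, 6235, 5523, 5174 and 5041 with BNF, 1.57-fold lower (adjusted p = 1.56e-05). Apoc2, the cofactor of lipoprotein lipase, fell 1.29-fold (0.00473), and Apob (0.0351) and Apoc4 (0.0340) were lower but lost their calls in 5 and 7 of 10 fits that left out 1 array. The list's count was 2 without BNF array 3, 4 or 5 or vehicle array 1 or 5.

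Glucose and glycogen genes showed the second largest share of lower calls among the lists, which were chosen with earlier results of these data known. Of 23 genes, 9 were lower (39.1%, against 2.40% of all genes) and none higher, with a median log2 difference of -0.28. When 1 array was left out, 6 to 10 were lower. Fbp1, which acts in gluconeogenesis, read 13102, 13482, 13849, 13946 and 15762 in vehicle and 10020, 9013, 8792, 7355 and 8410 with BNF. No values overlapped, and Fbp1 fell 1.61-fold (-0.69 ± 0.09 SE, adjusted p = 5.50e-06). Slc37a4, the transporter that brings glucose-6-phosphate to its phosphatase, fell 1.46-fold (adjusted p = 0.00576). Gys2, the liver glycogen synthase, read 5635, 5084, 4867, 5609 and 5528 in vehicle and 2944, 3180, 3206, 2707 and 3123 with BNF, a 1.76-fold fall (adjusted p = 5.65e-05). Enzymes of sugar use fell beside those of sugar release. Khk, which phosphorylates fructose, fell 1.39-fold (6.90e-05), Pklr, the liver pyruvate kinase, 1.57-fold (1.50e-04), and Pdhb, a subunit of pyruvate dehydrogenase, 1.25-fold (1.66e-05). A second, dim probe set of Pklr gave a log2 difference of -4.69 (adjusted p = 2.17e-06), far from the -0.65 of the brighter one, so the size of its fall is uncertain.

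Among mitochondrial genes, some carriers and cycle enzymes were lower. Of 27 genes of the TCA cycle and mitochondrial carriers, 8 were lower (29.6%), and 22 had a negative difference (median log2 difference -0.07). They included the carriers Slc25a10 for dicarboxylates (1.42-fold, adjusted p = 4.55e-04) and Slc25a4 for ADP and ATP (1.28-fold, 0.00124). Suclg1, a subunit of succinyl-CoA ligase, fell 1.23-fold (0.00622). Mdh1, also on this list but the cytosolic malate dehydrogenase and not that of the cycle, fell 1.25-fold (0.00404). Without vehicle array 4 this count was 5. Of 38 genes of oxidative phosphorylation, 1 was lower (2.63%, near the 2.40% of all genes): Sdha, the flavoprotein of complex II, at 1.16-fold (adjusted p = 0.00444). This list's median log2 difference was -0.06, with 31 of 38 negative, and a difference between both lists was not tested.

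Some genes of nitrogen metabolism were lower in several lists. Of 19 genes of methyl and creatine metabolism, 8 were lower (42.1%, against 2.40% of all genes), the largest share of any list. The lists were chosen with earlier results of these data known, so this ranking is a description. In each fit that left out 1 array, 8 genes of this list were lower. Bhmt, which remethylates homocysteine with betaine, read 36432, 40311, 32843, 42042 and 47884 in vehicle and 29125, 28095, 21792, 17584 and 18774 with BNF. It fell 1.75-fold with no overlap (adjusted p = 0.00734), and its relative Bhmt2 fell 1.48-fold (0.00444). Along the same route, Chdh, which makes betaine aldehyde from choline, fell 1.44-fold (7.73e-05) and Sardh, the sarcosine dehydrogenase, 1.61-fold (0.00200). Mat1a, which makes S-adenosylmethionine in liver, fell 1.23-fold (0.00279), and Mthfd1, a folate enzyme, 1.13-fold (0.00382). Slc6a8, which imports creatine, was the 1 member that was higher, while Gamt, which makes it, was among the 8 lower.

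Of 34 genes of amino acid breakdown, 10 were lower (29.4%, against 2.40% of all genes) and none higher, with a median log2 difference of -0.28. Cdo1, which oxidises cysteine, read 38073, 32359, 36606, 32117 and 35106 in vehicle and 27965, 25133, 28810, 25973 and 28120 with BNF, 1.28-fold lower without overlap (adjusted p = 0.00308). Upb1, of pyrimidine breakdown, fell 1.46-fold (adjusted p = 0.00196) and Dpyd, of the same pathway, 1.35-fold (0.00968). Dbt, of branched-chain keto acid oxidation, fell 1.32-fold (0.00288) on its brighter probe set, while the other gave a log2 difference of 0.82 (adjusted p = 0.592). The list's count was 5 without BNF array 4. Of 19 genes of the urea cycle and nitrogen handling, 5 were lower (26.3%) and 1 higher. Slc25a15, the mitochondrial ornithine carrier, fell 1.38-fold (adjusted p = 0.00168) and Slc25a13, the aspartate-glutamate carrier, 1.31-fold (0.00404). Other probe sets of Slc25a15 ranged from -0.43 (adjusted p = 0.00238) to 0.35 (adjusted p = 0.781). The other probe set of Slc25a13 gave -0.14 (adjusted p = 0.565). Glul, the glutamine synthetase of hepatocytes around the central vein, rose 1.23-fold (adjusted p = 0.00180) as deposited but was not called with arrays centred on all probe sets (0.155). Its other probe sets gave log2 differences of 0.25 (adjusted p = 0.0550) and 0.06 (0.740). The core enzymes Cps1 (54640 ± 3343 in vehicle, 52564 ± 2568 with BNF, SD, n = 5) and Ass1 (56813 ± 3827 and 54622 ± 3004) did not pass the test. A dimmer probe set of Cps1 gave a log2 difference of -0.58 ± 0.18 (SE, limma adjusted p = 0.0709). Otc was called lower (adjusted p = 0.0233) on a dim probe set with overlapping groups, a call lost in 4 of 10 fits that left out 1 array. The count of lower urea cycle genes was 2 without BNF array 4, and 3 without BNF array 3 or 5 or vehicle array 1, 2, 4 or 5.

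Some genes of secreted proteins were lower. Alb (75852 ± 8565 in vehicle, 75139 ± 8225 with BNF, SD, n = 5, adjusted p = 0.968) and Ttr (adjusted p = 0.865) did not pass the test. Of 26 plasma protein genes, 7 were lower (26.9%, against 2.40% of all genes) and none higher. They were led by Itih4, an inter-alpha-trypsin inhibitor chain (1.25-fold, adjusted p = 5.22e-04). That list rested on single arrays: 1 gene was lower without BNF array 4, 2 without BNF array 5 or vehicle array 5, and 4 without BNF array 2 or 3 or vehicle array 1 or 4. Of 29 coagulation and complement genes, 7 were lower (24.1%), with 3 without vehicle array 5 and 4 without BNF array 4. Mbl2, the mannose-binding lectin, read 11173, 13487, 11889, 14944 and 13445 in vehicle and 9810, 8611, 8729, 8416 and 8689 with BNF, 1.46-fold lower (adjusted p = 1.08e-04). Its other probe set gave -0.12 (adjusted p = 0.306). Serpinf2, the plasmin inhibitor, fell 1.51-fold (0.00122) and C8a, of the terminal complement complex, 1.38-fold (0.00122). Among 22 acute phase genes, 3 were lower (13.6%), including Crp, the C-reactive protein (1.59-fold, adjusted p = 0.00119), and Il6st, the shared subunit of interleukin-6 receptors (1.21-fold, 0.00982). Other probe sets of Il6st ranged from -0.43 (adjusted p = 0.0154) to 0.09 (0.691). Of the 13 hepatocyte markers, 4 were lower (30.8%), Cyp2e1, Hnf4a, Apob and Asgr1. All 13 had a negative log2 difference, from -0.48 to -0.01. The call of Cyp2e1 held in all fits run, and the list's count was 1 without BNF array 4 or 5 or vehicle array 1 and 2 without BNF array 3 or vehicle array 2 or 5. The summed signal of the hepatocyte markers was 510286 ± 26926 in vehicle and 481339 ± 27013 with BNF (SD, n = 5, exact permutation p = 0.135).

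A few inflammatory genes rose. Of 31 chemokine and NF-kB genes, 3 were higher (9.68%, against 1.91% of all genes) and none lower. Cxcl1, a neutrophil-attracting chemokine, read 2745, 3027, 3786, 3621 and 3607 in vehicle and 5245, 5116, 6656, 6010 and 6072 with BNF. All BNF arrays were above all vehicle arrays, and Cxcl1 rose 1.74-fold (0.80 ± 0.12 SE, adjusted p = 7.12e-05). Sod2, the mitochondrial superoxide dismutase, rose 1.26-fold (adjusted p = 4.50e-04). Icam1, an adhesion molecule, was 1.33-fold higher (0.00452) as deposited and not called with arrays centred on all probe sets (0.112). The summed signal of the 14 Kupffer markers moved the same way, from 27645 ± 1630 to 29894 ± 992 (SD, n = 5, exact permutation p = 0.0159, adjusted p = 0.0952). Most of that rise was Cd14, the brightest of them, at 13722 ± 1750 and 15658 ± 509, and the other 13 summed to 13922 ± 249 in vehicle and 14236 ± 844 with BNF. None of the 14 was called in limma (1 at an unadjusted p under 0.05), 7 lay above the median gene, and the defining markers Clec4f and Adgre1 lay at the 43.9th and 9.78th percentiles of gene signal. The part of Kupffer cells in the rise of Cxcl1 was not tested. Of 22 interferon response genes 2 were higher (9.09%), Irf1 (adjusted p = 0.0151) and Psmb9 (0.0195), and the list had none without vehicle array 5 and 1 without BNF array 1 or 3 or vehicle array 4. With arrays centred on all probe sets neither was called (adjusted p = 0.238 and 0.256), and with arrays centred on the gene median Irf1 alone was.

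Few genes of regulators and stress programmes were called. Of 33 liver transcription factor genes, 3 were lower (9.09%, against 2.40% of all genes). Atf5 (1.17-fold, adjusted p = 0.00892) was the 1 that kept its call in all fits run. The list's count was 1 without BNF array 4 or 5 or vehicle array 1, 4 or 5. Hnf4a, a master regulator of hepatocyte genes, was 1.16-fold lower (adjusted p = 0.0339), a call lost in 7 of 10 fits that left out 1 array. Its other probe sets gave log2 differences of 0.13 (adjusted p = 0.513) and -0.03 (0.955). Ghr, the growth hormone receptor, fell 1.27-fold (0.00821), the only call among 23 genes of growth hormone and IGF signalling. Epas1, a hypoxia-inducible factor, fell 1.19-fold (0.00244) on its brighter probe set, and the other gave 0.50 (adjusted p = 0.528). Sdf2l1, an endoplasmic reticulum chaperone partner, rose 1.42-fold (4.49e-04) and Edem1, which sends misfolded proteins to breakdown, fell 1.23-fold (0.0126). Their list of 31 genes, for endoplasmic reticulum stress and the amino acid response, had 2 higher (6.45%, against 1.91% of all genes) and 1 lower (3.23%, against 2.40%). In it 12 genes had an unadjusted limma p under 0.05, against 17.5% of all genes. The 2 higher became 1 without vehicle array 4 or BNF array 5, with either centring and with the 2 groups fitted alone, and 4 after quantile normalization or without the dimmer genes. By the same limma test, none of the 19 clock, 18 heat shock, 33 cell cycle, 41 ribosomal protein or 30 proteasome genes was called. At an unadjusted p under 0.05 there were 3, 5, 5, 1 and 9 such genes in these lists, in that order, against 17.5% of all genes (2482). The proteasome list had 3 higher after quantile normalization, without the dimmer genes or without BNF array 2, and the other 4 lists had at most 1 call under any alternative.

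The higher dose was then set beside the lower one. At 100 µM for 24 h, 3000 genes (21.1%) differed from vehicle, 10.7% higher and 10.4% lower. Both doses were compared with the same 5 vehicle arrays, so their differences from vehicle share those arrays. The direct test of 100 against 1 µM used the 5 arrays of each dose and called 1097 genes (7.72%), 447 with more signal at 100 µM (3.14%) and 650 with less (4.57%). With arrays centred on all probe sets that test called 612. Cyp1a1 differed from vehicle by 1.94 at 1 µM and by 2.36 at 100 µM in log2 units, and the doses did not differ by the test (0.42 ± 0.20 SE, adjusted p = 0.255). Nqo1 was similar in this respect, with 0.70 and 0.88 (difference 0.17 ± 0.07 SE, adjusted p = 0.126). Cyp1a2 had more signal at 100 µM (0.64 and 1.13, adjusted p = 0.00441), as did Tiparp (1.37 ± 0.08 SE above 1 µM, adjusted p = 1.56e-13) and Cyp1b1 (2.59 ± 0.17 SE, adjusted p = 2.15e-12). Hsd17b2 rose further between the doses (1.02 and 2.10, difference 1.08 ± 0.14 SE, adjusted p = 2.09e-06), and so did Cyp2a1 (0.97 and 1.97, difference 1.01 ± 0.06 SE, adjusted p = 1.31e-12). Ceacam1, an adhesion protein of the canalicular membrane, went from 0.38 at 1 µM to 1.25 at 100 µM (difference 0.87 ± 0.05 SE, adjusted p = 7.53e-14).

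Other genes took the opposite course. Por was lower at 1 µM (-0.48, adjusted p = 5.78e-04) but not called at 100 µM (-0.07, adjusted p = 0.614), and the doses differed by 0.40 ± 0.08 (SE, adjusted p = 0.00135). Ubd was higher at 1 µM (0.59) and near vehicle at 100 µM (0.10, adjusted p = 0.587), and these doses differed as well (-0.50 ± 0.10 SE, adjusted p = 0.00150). Among genes that fell, Ccn2 had the largest further loss, from -0.74 to -2.28 (difference -1.54 ± 0.10 SE, adjusted p = 4.29e-12). Gucy2c went from -0.85 to -1.65 (adjusted p of the dose difference 1.27e-08), Cyp4f4 from -0.80 to -1.89 (2.25e-05) and Serpinf2 from -0.59 to -1.40 (6.79e-06). Scd (-0.55 and -0.61, adjusted p = 0.797), Fasn (-0.73 and -0.75, adjusted p = 0.973) and Abcb4 (-0.34 and -0.30, adjusted p = 0.827) did not differ between the doses by the test. The gene lists were counted in the same test. NRF2 targets had 14 of 22 members with more signal at 100 µM than at 1 µM and none with less (3.14% and 4.57% of all genes), and 6 of 30 proteasome genes had more. In amino acid breakdown 19 of 34 genes had less signal at 100 than at 1 µM, in fatty acid oxidation 17 of 43 and in glucose and glycogen 10 of 23.

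**Figure D4:**
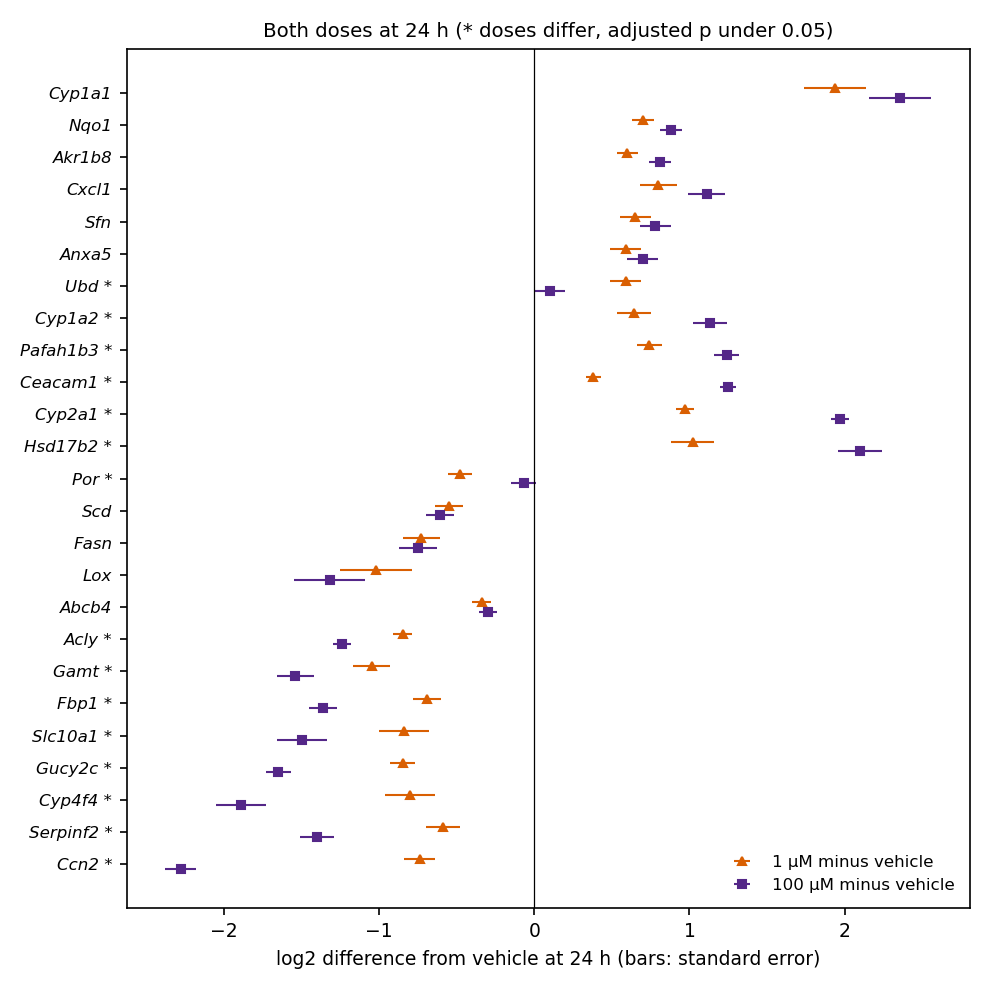
Log2 difference from vehicle at 24 h (x axis, bars show the standard error) of 25 genes at 1 µM (orange triangles) and 100 µM (purple squares), both against the same 5 vehicle arrays. An asterisk marks genes whose 2 doses differ in the direct test. Cyp1a1, Nqo1, Scd, Fasn and Abcb4 carry none, Hsd17b2, Cyp2a1 and Ccn2 lie farther from vehicle at 100 µM, and Ubd and Por lie nearer to it.

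Fewer genes were called for 1 µM BNF at 48 h. The 48 h arrays came from other wells, with their own 5 vehicle arrays. At 48 h 115 genes were called (0.809%), 41 higher (0.288%) and 74 lower (0.521%). Of the 612 genes called at 24 h, 491 (80.2%) had the same direction at 48 h, against 57.6% of all genes. The median log2 difference of the 271 higher genes was 0.30 at 24 h and 0.07 at 48 h, and that of the 341 lower genes was -0.35 and -0.14. These genes were chosen by their difference at 24 h, which favours larger values at that time. The medians therefore cannot show whether the effect faded. At both times 52 genes were called in the same direction, 8.50% of the calls at 24 h and 45.2% of those at 48 h. They comprised 14 genes higher and 38 lower. Cyp1a1 (1.94 at 24 h, 1.32 at 48 h), Cyp1a2 (0.64 and 1.12), Nqo1 (0.70 and 0.46), Cyp2a1 (0.97 and 1.26), Akr1b8 (0.60 and 0.64), Pafah1b3 (0.74 and 0.39) and Sod2 (0.33 and 0.29) were higher at both times. Gamt (-1.05 and -0.76), Car5a (-0.88 and -0.83), Ccn2 (-0.74 and -0.74), Scd (-0.55 and -0.66), Cyp2e1 (-0.48 and -0.48) and Crp (-0.67 and -1.06) were lower at both. Hsd17b2 (0.41, adjusted p = 0.174), Cxcl1 (0.24, adjusted p = 0.454) and Gys2 (-0.21, adjusted p = 0.531) were not called at 48 h.

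Few genes passed the test of the difference between times itself. It called 13 genes (0.0914%), with 1319 at an unadjusted p under 0.05, and it called none with either centring of the arrays, so these calls depend on the scaling. It called 2 without vehicle array 1 or 5 or BNF array 4, 3 without BNF array 3, 5 without BNF array 5 and 20 without vehicle array 3. Acly fell by 0.85 at 24 h and by 0.35 at 48 h in log2 units (difference 0.50 ± 0.08 SE, adjusted p = 0.0115). Slc6a9, a glycine transporter, went from -0.33 to 0.19 (adjusted p = 0.00465), though its other probe sets were not called at 24 h. Sprr1a, a cornified envelope protein also induced in stressed tissue, went from 0.51 to -0.09 (adjusted p = 0.0414). For most genes, then, a call at 24 h and none at 48 h was not shown to be a difference between the times.

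**Figure D5:**
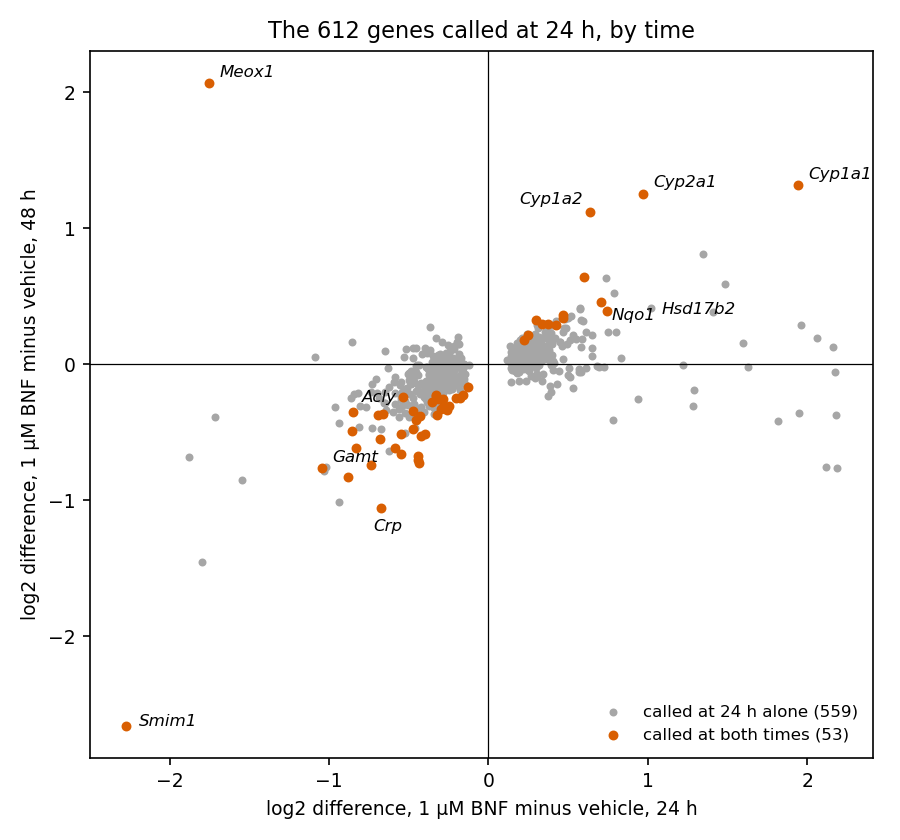
Log2 difference between 1 µM BNF and vehicle at 48 h (y axis) against that at 24 h (x axis) for the 612 genes called at 24 h, with the 53 also called at 48 h in orange. All but 1 of those 53 have the same sign at both times. The exception is Meox1, whose signal was dim. Cyp1a1, Cyp2a1 and Cyp1a2 lie above 1 at 48 h.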

How the data were processed

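RNA of 30 cultures was hybridised to Affymetrix rat arrays, and 10 of them carry the comparison described here. The deposited values are linear signal intensities per probe set, made by the authors. MAS5 (version not stated) is the tool named per the submitters' processing notes. Their trimmed means (2% off each end) were 1500.5 to 1500.6, so the arrays had been scaled alike, and a shift shared by most genes cannot be seen. How background was corrected is not given in the sources used here. The table has 31099 probe sets, 57 of them controls. The platform annotation gives 1 symbol to 20826, several to 436 and none to 9780, and the last 2 kinds were not used. The gene numbers of 20758 probe sets matched RefSeq genes on GRCr8, which served for names and promoters. Each of 14217 genes took the probe set whose log2 signal averaged highest over all arrays, and 4525 had a choice.

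Signals were log2-transformed without an added constant and fitted with limma 3.58.1 in R 4.3.3, with 1 mean for each of 6 groups (24 residual degrees of freedom) and eBayes with a trend. For each contrast the Benjamini-Hochberg adjustment ran over all 14217 genes, with calls at 0.05. SE stands for the fitted standard error of a log2 difference, and a fold is 2 to the power of its size. The model was tested on simulated data. Array measures were compared by two-sided exact permutation tests (smallest possible p 0.00794) and adjusted over the 12 measures. Arrays of a group are numbered in the order of the samples, and the main fit did not use these numbers as pairs. No 2 arrays were identical, and the number of arrays limits the precision.

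Named genes were all AhR battery members, the 15 highest and 15 lowest log2 differences among called genes with groups apart and a signal above the median gene, up to 6 called members with the smallest adjusted p of each of 46 lists, called markers of other cell types, and up to 5 genes in each direction for the dose and time differences. Hepatocyte markers and receptor partners were named by level. Members and lists were chosen with earlier results of these data known. The lists held 1206 entries, of which 1060 were measured. Alternatives changed the centring, the normalization, the constant, the filter, the choice of probe set, the groups fitted, the trend, an array covariate or a block, or left out 1 array.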

Additional observations from a re-analysis of the deposited data

Results flagged for a closer look

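Single arrays stood apart from the other 4 of their group in 11 of 326 groups of 5 arrays examined for the named genes, where chance alone marks about 1 in 20. High values were Cyp1b1 at 956 on a BNF array (next 631), Ahrr at 304 on a vehicle array (next 64.0), Gnpda2 at 4671 with BNF (next 3813), Hsd11b1 at 32480 in vehicle (next 29750), Rdh16 at 5901 with BNF (next 5453), Azgp1 at 17723 in vehicle (next 16070) and Mbl2 at 9810 with BNF (next 8729). Low values were Ugt2b10 at 1361 in vehicle (next 1722) and at 1046 with BNF (next 1271), Perp at 14824 in vehicle (next 16734) and Suclg1 at 14240 in vehicle (next 15824).

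For 10 named genes the effect of 1 µM BNF differed between 24 and 48 h in the limma test of that difference. On the log2 scale, the effect at 48 h minus that at 24 h was 0.50 for Acly, 0.52 for Slc6a9, 0.39 for Itih1, 0.36 for Copg1 and 3.82 for Meox1, a gene at the 1.44th percentile of signal. It was -0.60 for Sprr1a, -0.55 for Pdrg1, -0.49 for Fgfr1op2, -0.46 for Sltm and -0.27 for Arfrp1. With either centring of the arrays none of the differences between times was called.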

How the results depend on the processing

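The count of lower genes (341) stayed within 1.5 times under all 21 alternatives, from 234 to 349 when 1 array was left out. The total of 612 became 395 with arrays centred on the median of all probe sets (an alternative chosen after seeing the data) and ranged from 406 to 689 when 1 array was left out. Higher genes, 271 as reported, numbered 151 with arrays centred on the gene median, 51 with arrays centred on all probe sets and 137 with the 2 groups fitted alone, which have 8 residual degrees of freedom, and 167 to 340 when 1 array was left out. Genes changed at least 2-fold, 29 as reported, were 5 when the dimmer genes had been removed, since most lie among those, and 17 to 37 when 1 array was left out. Genes that differed between the doses, 1097 as reported, were 612 with arrays centred on all probe sets and 781 to 1112 when 1 array was left out. Genes whose effect differed between the times, 13 as reported, were 0 with either centring, 20 after quantile normalization, 1 with the mean over all probe sets of a gene, 4 without the mean-variance trend and 2 to 20 when 1 array was left out. The 52 genes called at both times stayed within 1.5 times in the 3 alternatives run for them. Where no construction shows it, the cause was not tested. The labels give no replicate numbers, but the running array numbers form 5 sets of consecutive arrays with 1 array of each group. With these sets as a replicate block (chosen after seeing the data, 20 residual degrees of freedom) 643 genes were called, 298 higher and 345 lower, 1121 differed between the doses and 9 between the times. Vehicle and BNF arrays of a set correlated by at most 0.02 in their deviations from the group means. Of these 10 arrays, 3 correlated best with their own set. The correlations ran over all genes, dim ones included, so they cannot settle whether the sets pair the arrays. Under the block 6 named genes lost their calls, Hsd11b1, Ugt2b10, Fmo5, Dhcr7, Il6r and Meox1.

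Of 159 named genes that were called, 106 kept their call in all 10 fits that left out 1 array and 85 under all 21 alternatives. With the mean over all probe sets of a gene, the direction turned for Dbt (to 0.208), Epas1 (to 0.124), Tp53inp2 (to 0.183) and Arfrp1 (to -0.044), which brings in dimmer probe sets. Other probe sets exist for 41 of the 159.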

Other observations

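Some lists outside the main text held few calls. Heme synthesis and iron had 2 of 19 genes lower, Alas1 and the iron-responsive aconitase Aco1 (1.43-fold, limma adjusted p = 0.0123), and 1 higher, the biliverdin reductase Blvrb (1.13-fold, adjusted p = 0.0121), which was not called with either centring of the arrays. Retinoid metabolism had 2 of 21 lower, Rdh7 (1.36-fold, adjusted p = 0.0109) and Rdh16 (adjusted p = 0.0293), both retinol dehydrogenases, of which Rdh16 lost its call in 6 of 10 fits that left out 1 array. Amino acid transporters had 3 of 20 lower, among them the glutamine transporter Slc38a3 (log2 difference -0.27, adjusted p = 0.0125). These shares stand against 1.91% higher and 2.40% lower over all genes.

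Cytoskeleton and matrix genes split, with 4 of 36 higher (11.1%, against 1.91% of all genes) and 2 lower (5.56%, against 2.40%). Those higher were Anxa5, Anxa3, S100a11 and Tagln2, and those lower were Ccn2 and Myh9. With either centring the higher count was 1. Anxa5 and Ccn2 kept their calls whichever array was left out, and the other 4 lost theirs in 6 to 8 of the 10 such fits. Among 21 p53 targets, 2 were higher (9.52%), Perp (1.16-fold, adjusted p = 0.00180) and Plk3 (1.48-fold, adjusted p = 0.0389), and 2 lower (9.52%), Sesn1 and Tp53inp2. Plk3 lost its call in 8 of 10 fits that left out 1 array (all but those without BNF array 1 or vehicle array 3) and Sesn1 and Tp53inp2 in 6 each, so that neither was lower without vehicle array 1, 2 or 4 or BNF array 3 or 4. With arrays centred on all probe sets neither Perp (adjusted p = 0.352) nor Plk3 (adjusted p = 0.145) was called. The other probe set of Perp gave a log2 difference of -0.09 (adjusted p = 0.239). In the immediate early list of 24 genes, Fosl1 was higher (1.36-fold, adjusted p = 0.0211) and Klf10 lower (1.25-fold, adjusted p = 0.0152). That was 1 gene in each direction, 4.17% of the list. Fosl1 lost its call without BNF array 3 or 4 or vehicle array 5 and with arrays centred on all probe sets (adjusted p = 0.0948), while Klf10 kept its call in all fits run.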
